A study of Magallana angulata with 3 samples.

Results

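Adductor muscle of a triploid Fujian oyster (Magallana angulata) library, T, was compared with that of the diploid library DM, gene by gene. Genes entered the comparison when their mean over T and DM was at least 1 RPKM (reads per unit of gene length, relative to all reads of a library), which held for 13752 of the 28027 gene identifiers in the deposited tables. A further 4893 identifiers lay above 0 in T or DM but under this limit, and the genes nearest to it had means of 1.001 RPKM inside and 0.9999 RPKM outside. The study holds 3 muscle libraries, of which DF is a diploid one like DM. Per the labels' protocols, diploids were bred by crossing diploids, and triploids were made from the same parents by a chemical that keeps the second polar body in the egg. All animals then lived for 1 year at the same temperature and food supply. What the letters F and M mean and how many animals a library pools are not stated. Whether T matches DM beyond tissue, parents, age, temperature and food is not stated either. Ploidy, animal and library preparation therefore cannot be told apart.

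The adductor is the muscle that pulls the oyster's valves together against an elastic hinge. It contains fibres for quick closure and smooth catch fibres, which are rich in paramyosin and hold tension for long periods at little energy cost. Retention of the second polar body leaves an additional maternal chromosome set in the zygote, and triploid oysters are known for poor gamete production. The identifiers were not paired with gene names, as 0 of 28027 occur in the reference gene table used, so roles of single genes are not given and muscle markers were not checked. In RNA from whole tissue, fewer cells of a type and less RNA per cell cannot be told apart.

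The libraries rested on 2137859 (T), 2057805 (DM) and 1805591 (DF) reads, totals recovered from the spacing of the RPKM values. Reads per compared gene had a median of 19 in T, 12 in DM and 19 in DF. Each label has 1 library, so no difference below has a replicate error or a test. Intervals are 95% exact counting intervals from the recovered reads and cover counting error only.

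Most genes stood higher in T than in DM on the deposited scale. On log2(RPKM + 1), a scale that understates differences of low genes, 9920 of the 13752 genes (72.1%) had a larger value in T, with a median difference of 0.48. The central interval from the 5th to the 95th percentile ran from -0.998 to 2.17. The median level was 8.10 RPKM in T and 5.14 RPKM in DM. At least 2-fold higher in T were 3604 genes (26.2% of those compared), and at least 2-fold lower 684 (4.97%). At 4-fold, 884 genes were higher (6.43%) and 169 lower (1.23%). At 8-fold these counts were 168 (1.22%) and 28 (0.204%).

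Much of this imbalance went with an overall shift. Median-of-ratios scaling, which sets the median ratio of T to DM over the 14791 genes above 0 in both libraries to 1, divided the T/DM ratio by 1.44 (0.53 on the log2 scale). After it, 52.2% of genes had a larger value in T and the median difference was 0.03. Genes at least 2-fold higher then numbered 2085 (15.2%) and genes at least 2-fold lower 1429 (10.4%). Higher genes made up 84.0% of the 2-fold calls as deposited and 59.3% after scaling. At 4-fold the scaled counts were 502 higher (3.65%) and 298 lower (2.17%), and at 8-fold 100 (0.727%) and 62 (0.451%). The 2085 genes higher after scaling were all higher as deposited too, and the 684 genes lower as deposited were all lower after scaling, which follows from a scaling that moves every gene the same way.

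**Figure D1:**
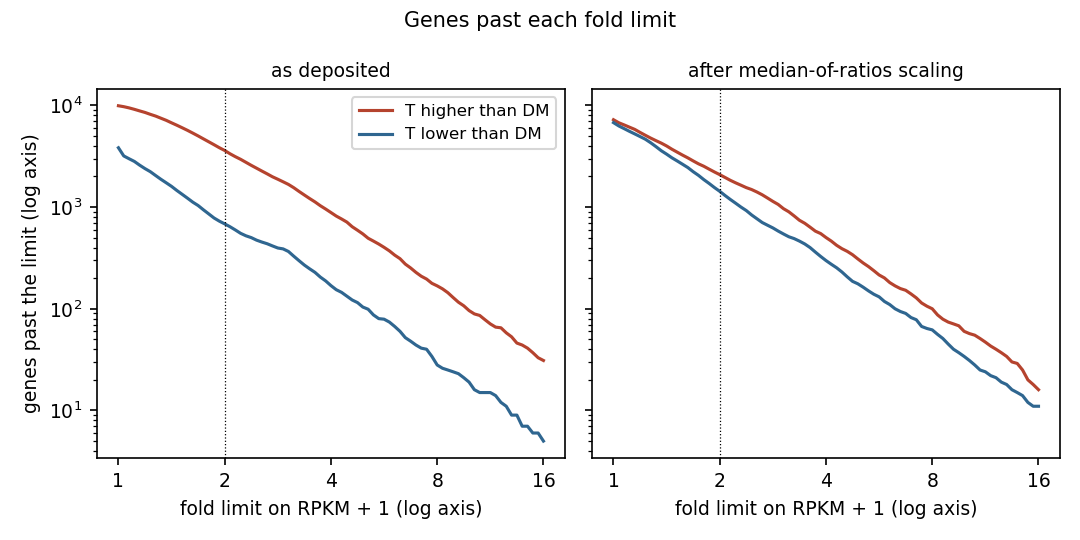
Number of genes (vertical, log axis) past each fold limit on RPKM + 1 (horizontal, log axis) as deposited (left) and after median-of-ratios scaling (right). Red counts genes higher in T than in DM and blue genes lower in T; the dotted line marks 2-fold, where the counts are 3604 and 684 on the left and 2085 and 1429 on the right.

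The median ratio fell on a step of low counts. A ratio of 1.44 is what 3 reads in T and 2 in DM give at these totals, and 330 genes (2.23% of those above 0 in both) had exactly reads in this proportion. Another 49.4% of genes lay below that ratio and 48.4% above it, so the median lay on this step. The trimmed mean of M values, which does not take a median, gave a factor of 1.43 with 59.9% of 2-fold calls higher, and the median of ratios over all 3 libraries gave 1.42 with 60.8%. Restricting the median to genes averaging 10 RPKM or more gave a factor of 1.36. Equal sums of RPKM, leaving out genes among the 20 most abundant of T or of DM, gave 1.26, with 70.2% of 2-fold calls higher. Scaling to reads outside the most abundant gene, chosen after seeing the data, gave 1.15, with 76.6% higher.

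Many 2-fold differences rested on few reads. With the counting interval of the read ratio also required to leave out 1, 2410 genes were higher (17.5%) and 313 lower (2.28%) as deposited, and 1107 were higher (8.05%) and 872 lower (6.34%) after scaling. The whole interval lay above 2-fold for 769 genes (5.59%) as deposited and for 325 (2.36%) after scaling. It lay wholly below, with T at less than 0.5 of DM, for 117 genes (0.851%) as deposited and 297 (2.16%) after scaling. At the other end, the interval stayed within 1.5-fold in either direction for 660 genes as deposited (4.8%) and 635 after scaling (4.62%). The 660 genes had a median of 241 reads in T and took 55.2% of the reads of T and 65.4% of those of DM, of which the most abundant gene alone took 23.9% and 33.8%. After scaling, the 635 genes no longer included that gene and took 23.9% of the reads of T and 16.9% of those of DM.

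The diploid libraries were compared with each other on the same genes. DM was at least 2-fold higher than DF in 938 (6.82%) and lower in 4575 (33.3%) as deposited. After scaling that pair by its own median of ratios, DM was higher in 2029 genes (14.8%) and lower in 2080 (15.1%). The log2 differences had a median absolute deviation of 0.53 for T against DM, and of 0.60 for DM against DF, as deposited. After scaling these values were 0.54 and 0.61, so the diploid pair was the wider one on either scale. Both pairs share DM, and the genes were selected on T and DM without DF. Whether the pairs differ was not tested.

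The shift between T and DM was not the same at every level of expression. In the class of 1 to 3 RPKM (3866 genes) the median difference was 0.50 as deposited, and at 3 to 10 RPKM (4353 genes) it was 0.56. It was 0.48 at 10 to 30 RPKM (2944 genes) and 0.40 at 30 to 100 RPKM (1647 genes). The smallest medians were 0.21 at 100 to 300 RPKM (570 genes) and 0.21 at 300 to 1000 RPKM (243 genes). Among the 129 genes of at least 1000 RPKM it was 0.44. The median difference was thus positive in all 7 classes, and lowest between 100 and 1000 RPKM.

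**Figure D2:**
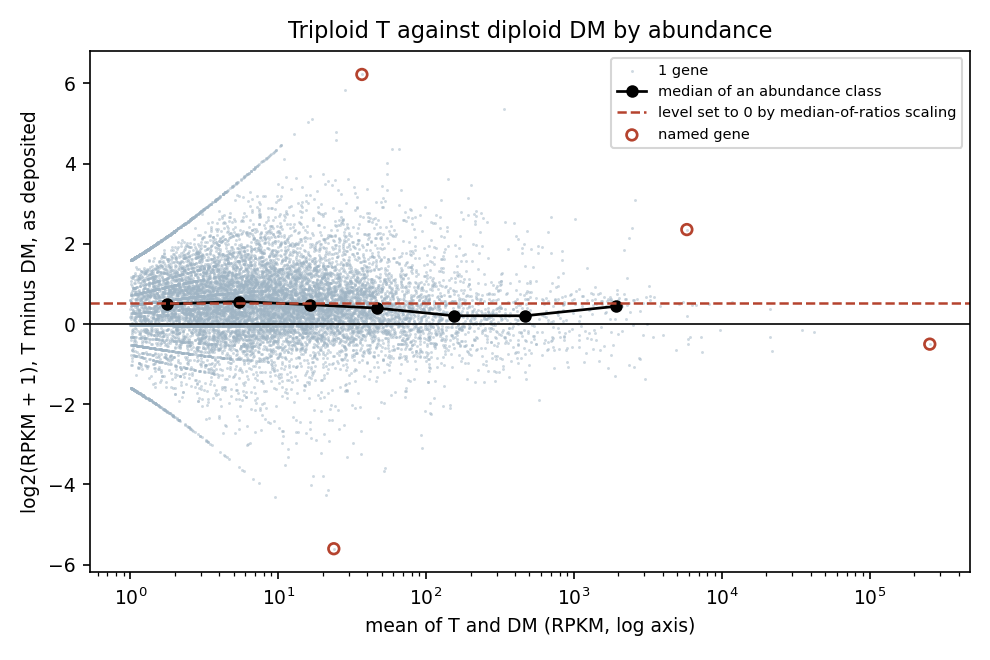
Difference of T from DM on log2(RPKM + 1) as deposited (vertical) against the mean of T and DM (horizontal, log axis) for 13752 genes. Black points are medians of 7 abundance classes, from 0.56 at 3 to 10 RPKM to 0.21 between 100 and 1000 RPKM; the dashed line is the 0.53 that median-of-ratios scaling sets to 0; rings are the 4 named genes; the outer streaks on the left are genes at 0 in DM (above) or T (below).

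With 1 factor for all genes, the calls leaned in opposite directions by abundance. After median-of-ratios scaling, higher genes outnumbered lower ones below 100 RPKM, with 1466 against 856 among the 8219 genes of 1 to 10 RPKM and 539 against 421 among the 4591 genes of 10 to 100 RPKM. Among the 942 genes of at least 100 RPKM the order was the reverse, with 80 higher and 152 lower. For these abundant genes the split depended on the scale, since 140 were higher and 42 lower as deposited. All 80 and all 152 also had counting intervals that left out 1. In the class of 1 to 10 RPKM only 554 of the 1466 and 324 of the 856 did.

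**Figure D3:**
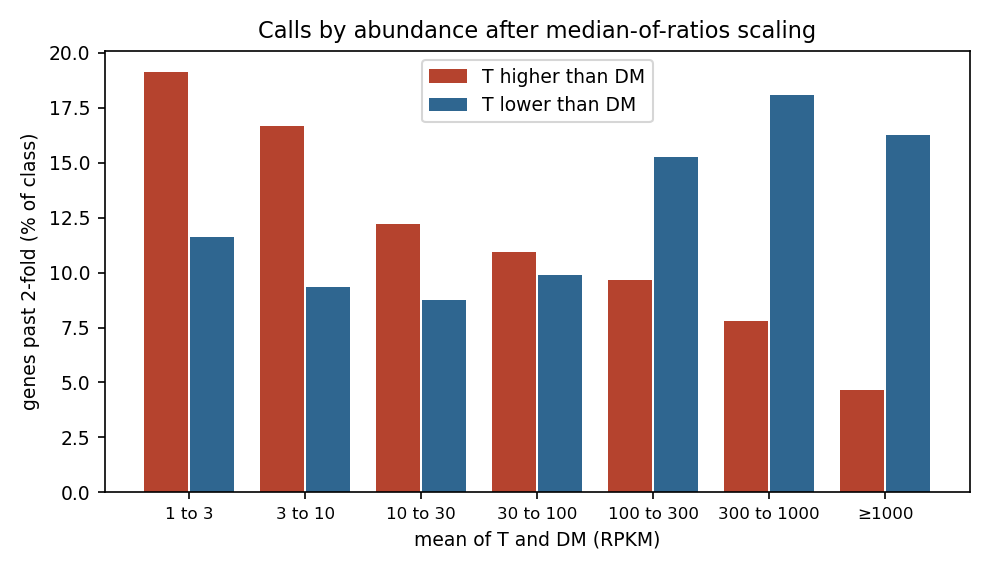
Share of genes past 2-fold (vertical, % of class) by mean of T and DM (horizontal, RPKM) after median-of-ratios scaling. Red bars (T higher) go from 19.1% at 1 to 3 RPKM down to 4.65% at 1000 RPKM and above; blue bars (T lower) are 11.6% and 16.3% in the same classes and reach 18.1% at 300 to 1000 RPKM.

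The width of the differences can be set beside counting error class by class. For the log2 ratio of reads, over genes above 0 in T and DM, the median absolute deviation was 0.74 at 1 to 3 RPKM, where counting error of a typical gene alone has 0.69. At 10 to 30 RPKM the values were 0.52 and 0.26. At 100 to 300 RPKM they were 0.46 and 0.10, and among genes of at least 1000 RPKM 0.31 and 0.03. At low levels counting error was thus nearly as wide as the differences, and in abundant genes the differences were several times wider than counting error.

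The reads were also spread differently over the abundance classes. The most abundant gene, CGI_10018876, took 23.9% of the reads in T, 33.8% in DM and 17.6% in DF. The other 128 genes of at least 1000 RPKM held 32.0% in T, 30.7% in DM and 31.0% in DF. Genes of 100 to 1000 RPKM took 18.8% in T and 17.0% in DM, a ratio of 1.11 (1.10 to 1.11). Genes of 10 to 100 RPKM took 16.9% in T and 12.7% in DM, a ratio of 1.34 (1.33 to 1.34). Genes of 1 to 10 RPKM took 5.57% in T and 3.59% in DM, a ratio of 1.55 (1.54 to 1.57). The ratio of T to DM thus went up as the level went down. As shares of the reads outside CGI_10018876, the 128 genes held 42.1% in T, 46.4% in DM and 37.6% in DF, and the ratio of T to DM was 0.906 for them and 0.963 at 100 to 1000 RPKM. Setting that gene aside thus turned the direction in these classes, while the ratio stayed above 1 at 10 to 100 RPKM (1.16) and at 1 to 10 RPKM (1.35). Of all reads, the share in DF was larger still in the classes of 1 to 10 and 10 to 100 RPKM, at 8.46% and 20.5%, so T lay between the diploid libraries there.

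**Figure D4:**
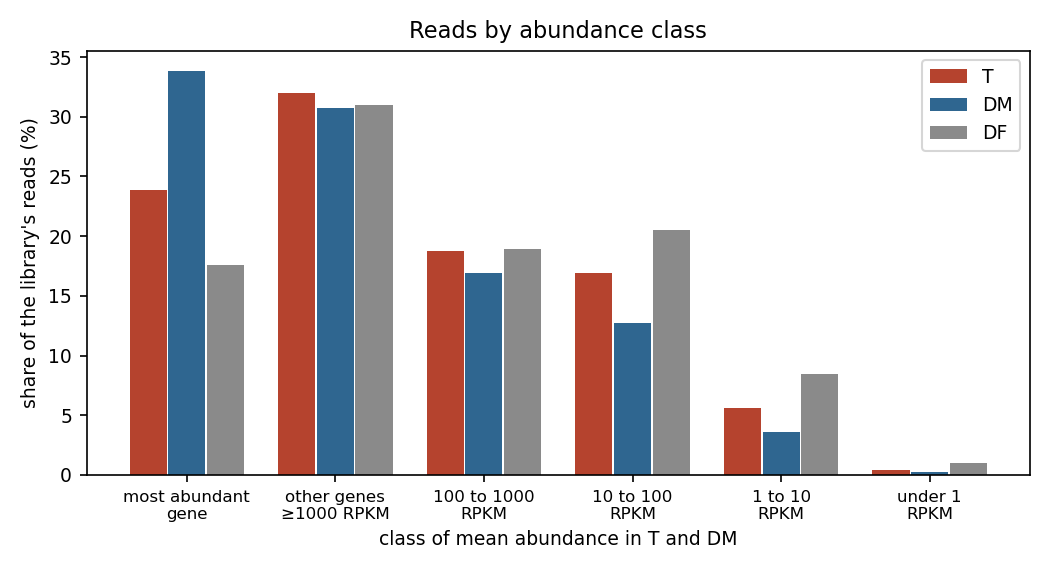
Share of each library's reads (vertical, %) by class of mean abundance in T and DM (horizontal), with T in red, DM in blue and DF in grey. DM has the tallest bar for the most abundant gene (33.8%, against 23.9% in T and 17.6% in DF) and the shortest in every class below 1000 RPKM.

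Expression was more concentrated in DM than in T. The reads of DM reached 50% with 10 genes, those of T with 42 and those of DF with 91. For 90% of reads, DM needed 1645 genes, T 2830 and DF 3455. Without the most abundant gene, 50% of the remaining reads came from 97 genes in DM, 157 in T and 213 in DF. DM therefore stayed the most concentrated library when that gene was set aside.

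The most abundant genes were largely shared. Of the 20 most abundant genes in T, 18 were among the 20 most abundant in DM, and of the 100 most abundant 82 were. Among the 20 with the highest mean, 9 were higher in T and 11 lower as deposited, with log2 differences between -0.70 and 2.35, and 1 was past 2-fold. After median-of-ratios scaling 1 was at least 2-fold higher and 4 were at least 2-fold lower. Of the 129 genes of at least 1000 RPKM, 82 were above and 47 below their DM level as deposited, and 8 were at least 2-fold higher and 5 at least 2-fold lower. After scaling these counts were 6 and 21.

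CGI_10018876 showed the largest difference in RPKM in the lower direction. Its level in T was 211346 RPKM (511017 reads), in DM 299164 RPKM (696268 reads) and in DF 155208 RPKM (316954 reads). Its level in T was 0.706 of that in DM (0.704 to 0.709) and 1.36-fold that in DF (1.36 to 1.37), so T lay between the diploid libraries. The log2 difference of T from DM was -0.50 as deposited, short of 2-fold, and -1.03 after median-of-ratios scaling, just past it. Its place on either side of 2-fold therefore depended on the scaling.

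CGI_10015188 showed the largest difference in RPKM in the higher direction. Its level in T was 9714 RPKM (14391 reads), in DM 1898 RPKM (2707 reads) and in DF 2.40 RPKM (3 reads). It ranked as number 8 in abundance in T and number 54 in DM. T stood 5.12-fold above DM (4.91 to 5.33) as deposited and 3.54-fold above it (3.40 to 3.69) after scaling. The other diploid library stood apart from both, with DM 792-fold (271 to 3842) and T 4051-fold (1386 to 19648) above DF.

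The largest log2 difference in each direction among the 5533 genes averaging 10 RPKM or more belonged to a gene at 0 in 1 library of the pair. CGI_10013287 had 73.6 RPKM in T (42.9 to 118) from 17 reads and 0 reads in DM and DF. With the 0 in DM set to a floor of 3 reads, the ratio of T to DM was 5.45. The lower limit of the counting interval, taken from 0 reads in DM, was 3.97. CGI_10023821 had 47.5 RPKM in DM (31.3 to 69.2) from 27 reads and 0 reads in T and DF. With the same floor for T, the ratio of DM to T was 9.35. The lower limit of its counting interval, taken from 0 reads in T, was 7.10. Both are short genes, with recovered lengths of 108 nt and 276 nt, which can be larger by a factor common to reads and length.

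The 20 genes farthest apart in each direction, among the same 5533, were chosen on T and DM, so their DF values were free to vary. In the 20 higher genes, T had 20.7 to 653 RPKM (median 36.1) and DM 0 to 15.1 RPKM (median 0.785). DF had 0 to 44.0 RPKM in them, with a median of 2.98, and 3 of the 20 were at 0 in DF. In the 20 lower genes, DM had 19.5 to 168 RPKM (median 38.9) and T 0 to 18.9 RPKM (median 2.03). DF had 0 to 28.0 RPKM there, and 11 of the 20 were at 0 in DF. The DF median in these 20 lower genes was 0 RPKM. Over all 13752 compared genes, which include lower levels than the 5533, 772 (5.61%) were at 0 in DF. The share among the 5533 genes alone is not given, so these numbers at 0 have no matching background. Genes of at least 100 RPKM were grouped at smaller fold limits than these extremes reached. The 42 at least 4-fold higher in T as deposited had a DF median of 3.99 RPKM, and the 5 at least 4-fold lower 202 RPKM. At 2-fold the DF medians were 155 RPKM (140 genes higher) and 251 RPKM (42 genes lower).

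Abundant genes were described at matched fold limits. Of the 942 genes of at least 100 RPKM, 140 were at least 2-fold higher in T than in DM as deposited, with medians of 281 RPKM in T, 87.7 in DM and 155 in DF. DF was under 10 RPKM in 36 of these 140. The 42 genes at least 2-fold lower in T had medians of 136 RPKM in T, 329 in DM and 251 in DF, and DF was under 10 RPKM in 0 of them. The DF median thus lay between T and DM in both sets. At 4-fold, 42 genes were higher, with medians of 369 RPKM in T, 56.1 in DM and 3.99 in DF, and DF was under 10 RPKM in 24 of them. Another 5 were lower, with medians of 50.2 RPKM in T, 211 in DM and 202 in DF, and 0 of them were under 10 RPKM in DF. After median-of-ratios scaling, 22 were at least 4-fold higher, of which 16 were under 10 RPKM in DF, and 9 at least 4-fold lower, of which 0 were. How many of all 942 genes were under 10 RPKM in DF was not counted. These counts therefore have no background share to be read against.

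In the genes past 2-fold the median level of DF lay between those of T and DM. In the 3604 genes at least 2-fold higher in T as deposited, the medians were 9.50 RPKM in T, 2.28 in DM and 7.19 in DF. In the 684 genes at least 2-fold lower they were 1.33 RPKM in T, 6.36 in DM and 3.77 in DF. Median log2 differences in the 3604 genes were 1.54 for T against DM, 0.28 for T against DF and -1.24 for DM against DF. In the 684 genes they were -1.63, -0.85 and 0.59. Each pair of these comparisons shares a library, and genes chosen as high in T and low in DM, or the other way, leave most room for DF in between. Over all 13752 genes the corresponding medians were 0.48, -0.18 and -0.60.

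**Figure D5:**
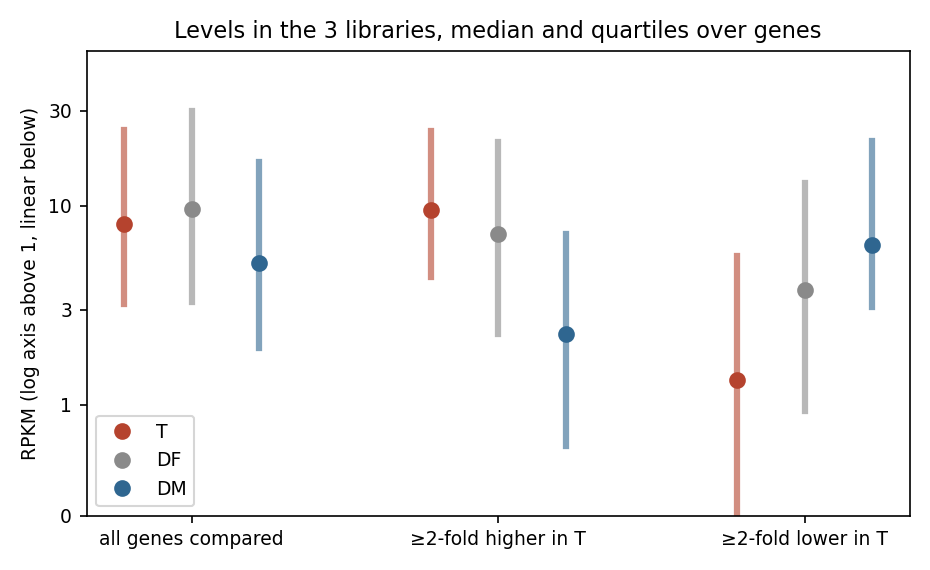
Median (point) and quartiles (bar) over genes of the RPKM (vertical, log axis above 1 and linear below) in T (red), DF (grey) and DM (blue), for all 13752 genes, the 3604 at least 2-fold higher in T and the 684 at least 2-fold lower in T, as deposited. The DF median is 7.19 RPKM in the higher and 3.77 RPKM in the lower genes, between T and DM in both.

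The part of the reads taken by genes past 2-fold depended on the scaling. As deposited, the 3604 higher genes held 11.8% of the reads of T, 3.29% of those of DM and 8.24% of those of DF. The 684 lower genes held 1.54%, 3.65% and 3.47%. After median-of-ratios scaling the 2085 higher genes held 7.50% of T reads and 1.502% of DM reads. The 1429 lower genes held 31.1% and 46.6%, shares that include CGI_10018876.

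More genes were detected in T than in DM. RPKM was above 0 for 17467 genes in T and 15969 in DM. Thinned to the number of recovered reads in DM, T would be expected to show 17374 genes. Leaving out CGI_10018876 and thinning to the 1320901 remaining reads of DM, the expected number was 16989 in T and 17001 in DF, against 15968 found in DM. Detection in DM thus stayed the lowest at equal reads.

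Counted in recovered reads, genes seen in 1 of the pair only were mostly at the edge of detection. Above 0 in T and at 0 in DM were 2676 genes, of which 1653 had a single read in T. Above 0 in DM and at 0 in T were 1178 genes, of which 902 had a single read in DM. Recovered reads are lower limits, so 1653 and 902 are upper limits for genes with a single read. At least 10 reads were reached by 73 of the first group and 10 of the second. Of those 73, 16 were at 0 in DF and 20 had at least 10 reads there. Of those 10, 5 were at 0 in DF and the highest had 5 reads there. The counting interval of a count of 0 extends past 3 reads, so a gene at 0 cannot be called absent at this depth.

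Recovered length went with the share of calls, as did the reads behind a gene. Recovered lengths are lower limits, and a gene with reads in few libraries is the most easily shortened. The classes below are therefore classes of recovered length, and a trend with true gene length cannot be read from them. Genes with a recovered length under 300 nt (1306 genes, median 5 reads in T) were at least 2-fold higher in 37.98% and lower in 13.0% as deposited. Genes of 600 to 1200 nt (4202 genes, median 18 reads) were higher in 26.2% and lower in 4.19%. Genes of at least 4800 nt (320 genes, median 53 reads) were higher in 17.2% and lower in 0.625%. The median difference moved less, from 0.65 in the shortest class to 0.48 and 0.40 in these. Within 10 to 100 RPKM the median was 0.66 under 300 nt (463 genes) and 0.38 at 2400 nt and above (353 genes). The part of read number in this trend was not tested.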

How the data were processed

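Oligo(dT)-selected RNA was made into Illumina digital gene expression libraries and run on a HiSeq system, per the labels' protocols. The submitters' processing notes name TopHat without a version. Which program counted the reads, and on what build and annotation, is not given in the sources used here. RPKM values, 1 table for each library, were deposited by the authors, and the unit is that of the file names. RPKM divides by the read total, so a very abundant gene lowers all others in its library.

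Read totals and whole reads were recovered from the 10 significant digits of the values, taking lengths as multiples of 3 nt. All 19931 genes above 0 in any library gave whole reads within 0.001, and 97.5% to 98.0% of the totals were recovered. A factor common to reads and length cannot be seen, so reads and lengths are lower limits. T and DM were joined on the identifier and compared with a pseudocount of 1 RPKM, without tests. Fold ratios of reads carry 95% Clopper-Pearson intervals, single levels 95% Poisson intervals. Reads copied by amplification are not separate molecules. The width of counting error per class is the median over genes of 0.674 times the delta-method SD. Expected detection used exact thinning without replacement.

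Named identifiers are those with the largest log2 difference (mean at least 10 RPKM) and the largest RPKM difference in each direction. The comparison, lists and rules were chosen with earlier results of these data known. Lists fixed by product name were not used. Scripts were tested on simulated data. Python 3.11.15, NumPy 2.4.6, pandas 2.3.3, SciPy 1.17.1 and matplotlib 3.10.9 were used.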

Additional observations from a re-analysis of the deposited data

How the results depend on the processing

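Of 46 recomputed values of the 4 counts of genes past 2-fold, 26 stayed within 1.5 times and 20 did not. In what follows, counts are higher then lower genes as deposited, then higher and lower after median-of-ratios scaling. A pseudocount of 5 gave 1477, 241, 747 and 604. A mean of at least 10 RPKM left 5533 genes and gave 1264, 209, 619 and 573. Counts past 1.5-fold were 6134, 1371, 3541 and 2912, and past 4-fold 884, 169, 502 and 298. The counting interval gave 313 lower genes as deposited, and 1107 and 872 after scaling. Scaling to reads outside the most abundant gene, added after seeing the data, gave 883 lower genes. A pseudocount of 0.1, no filter, a filter on the mean of 3 libraries, a recovered length of at least 300 nt (added after seeing the data) and the other scalings stayed within 1.5 times.

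The median difference of 0.48 was positive under the alternatives listed here, except that it was 0 with median-of-ratios scaling and genes at 0 set to 3 reads together (added after seeing the data). It was 0.55 and 0.30 with pseudocounts of 0.1 and 5, 0.42 at a mean of at least 10 RPKM, 0.43 with no filter and 0.46 with the mean of 3 libraries. Setting genes at 0 to 3 reads as deposited (added) gave 0.44. It was 0.0504 with median of ratios over 3 libraries, 0.11 over genes of at least 10 RPKM and 0.0375 with the trimmed mean of M values. Equal sums without the 20 most abundant genes of T or of DM gave 0.20, and reads outside the most abundant gene 0.31. Medians of ratios and the trimmed mean of M values centre the ratio of T to DM by construction. The sign of what they leave is therefore no check on the 0.48. The median absolute deviation of 0.53 became 0.62 and 0.32 with pseudocounts of 0.1 and 5, 0.48 at a mean of at least 10 RPKM, 0.49 with no filter and 0.51 with the mean of 3 libraries. Apart from settings that change the genes counted or the limit itself, the cause was not tested. The 4 named genes kept their direction in all 32 recomputations. They were chosen for large differences, which favours this. Depth limits low genes: for a length of 1 kb, each read adds 0.468 RPKM in T and 0.486 in DM. No paired analysis was possible because the groups hold a single library each.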
